A study of Mus musculus with 12 samples.

Results

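Cd44 and 6 genes of hyaluronan binding, synthesis and breakdown were followed in RNA-sequencing counts of mouse mammary tumourspheres. The members were the rows of the count table whose gene symbol was Cd44, Hmmr, Has1, Has2, Has3, Hyal1 or Hyal2, which gave 7 of the 55573 genes. Of these, 6 passed the filter on low counts, as did 13836 genes in all, and Has1 did not. Spheres of the spindloid lines A1005, A1129 and A1471 received, for 24 h, either DMSO as vehicle, Crizotinib (an inhibitor of the Met kinase), PD173074 (an inhibitor of FGF receptor kinases) or both drugs together (combination), each drug at 1 µM. Each treatment had 1 library from each line, so n = 3 cell lines per treatment and 12 libraries in all.

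Every group, DMSO included, carried the same background. The lines come from mammary tumours of MMTV-Metmt;Trp53fl/+;Cre mice, in which the mammary tumour virus promoter drives an activated Met transgene and 1 Trp53 allele can be deleted by Cre. The paper describes amplification of the endogenous Met locus in this model and retained transgene expression in non-spindloid lines. Whether Met in these spindloid lines came from the transgene or the endogenous locus was not tested. Each line represents a single tumour, and the sphere medium was serum-free and contained EGF, bFGF, insulin and heparin, so a ligand for the FGF receptors was present throughout. Total counts ranged from 13031492 to 17750476 per library. Expression is given as CPM (the count scaled to a common library total after TMM normalisation), or as CPM per kilobase of exon where genes are compared with each other. A level is given with its SD over the 3 lines of a treatment (n = 3), and a log2 fold change with its SE. Since each replicate is a different line, p-values measure the spread between lines. Libraries of the same line deviated together from their treatment means, so each test is given without and, where it changes the call, with the cell line as a block. The treatments are all set against the same 3 DMSO libraries, and their comparisons are therefore not independent of each other. In bulk RNA, fewer cells that express a gene and less RNA per cell cannot be told apart.

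The labelled tumour type was checked against markers. The summed level of 5 mesenchymal markers was 2408 to 8440 CPM per library, with Vim at a mean of 2890 CPM in DMSO and Cdh2 at 0 to 0.453 CPM. The sum of 6 epithelial markers was 7.32 to 52.3 CPM per library. Among them Krt5 was at 0 in every library, Cdh1 and Krt14 had no more than 11 counts and Epcam no more than 29. The keratins Krt18 and Krt8 were expressed, at 20.01 ± 15.68 and 7.058 ± 6.881 CPM in DMSO. They reached 748 counts (Krt18) and 611 counts (Krt8) in a library. The 4 leukocyte markers summed to 4.34 to 34.8 CPM in the DMSO and single-inhibitor libraries and to 8.22 to 42.0 CPM in the combination, with Adgre1 and Cd3e at 0 to 2 counts in any group and Ptprc at no more than 20.5 CPM. The remaining leukocyte marker, Cd68, was 9.04 ± 7.54 CPM in DMSO and 14.5 ± 8.69 CPM in the combination (edgeR's quasi-likelihood test, adjusted p = 0.624, and 0.00603 with the block). The 3 endothelial markers summed to at most 0.627 CPM.

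Hyaluronan is a long unbranched sugar polymer of the extracellular matrix that is spun out through the plasma membrane by hyaluronan synthases (Has1, Has2 and Has3) and cut into shorter chains by hyaluronidases, of which Hyal2 acts at the cell surface and Hyal1 in lysosomes. Cells bind it through CD44, a transmembrane glycoprotein that links the pericellular matrix to the actin cytoskeleton and is used, together with low CD24, to mark tumour-initiating cells in breast cancer. Hmmr (also called RHAMM or CD168) binds hyaluronan at the surface and, inside the cell, is a microtubule-associated protein of the mitotic spindle.

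Cd44 and Hmmr, the hyaluronan receptors among the members, fell in the combination, and the promoters of these genes are shown because they are the members whose transcripts changed without a block. Both stretches end just before the start of the gene in the GENCODE annotation, and capitals mark matches to any of 7 short motifs searched on both strands. The motifs were the cell cycle homology region (CHR, TTTGAA or TTCGAA), the CCAAT box (CCAAT), AP-1 (TGANTCA), the ETS core (CGGAA), the GC box (GGGCGG), the TATA box (TATAAA) and the cAMP response element (CRE, TGACGTCA). The sequences are from RefSeq for GRCm38 (mm10), chr11:40733423-40733687 for Hmmr and chr2:102901666-102901915 for Cd44, and both are written 5′ to 3′ along the minus strand, which is the strand of each gene.
Hmmr: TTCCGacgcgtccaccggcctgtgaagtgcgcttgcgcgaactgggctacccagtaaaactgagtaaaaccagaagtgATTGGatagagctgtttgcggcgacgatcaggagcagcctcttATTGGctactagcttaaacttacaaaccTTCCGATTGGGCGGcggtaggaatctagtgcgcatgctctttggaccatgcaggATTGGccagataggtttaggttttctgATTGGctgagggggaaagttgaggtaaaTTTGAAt
Cd44: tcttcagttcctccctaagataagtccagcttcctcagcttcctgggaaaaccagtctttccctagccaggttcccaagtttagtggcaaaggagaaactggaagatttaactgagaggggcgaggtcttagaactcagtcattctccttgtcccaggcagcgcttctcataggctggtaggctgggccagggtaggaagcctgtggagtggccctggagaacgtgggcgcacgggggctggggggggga

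In the Hmmr promoter of 265 bases, 5 CCAAT boxes lay on the strand opposite the gene, where they read as ATTGG, with first bases at positions -172, -129, -96, -47 and -20 from the RefSeq start. A CHR element, a motif known from promoters of G2 and M phase genes, lay at positions 9 to 14. There were also 2 ETS cores and 1 GC box, which overlapped a CCAAT box. None of the 7 motifs was present in the 250 bases printed for Cd44, and 1 GC box followed at positions 4 to 9. Over all 32851 RefSeq promoters of the same window, 37.4% held at least 1 CCAAT box, 19.2% a CHR element, 29.9% an ETS core, 35.7% a GC box, 13.6% a TATA box, 7.81% AP-1 and 1.79% a CRE. At least 5 CCAAT boxes were present in 89 promoters (0.271%), and 14 of these also held a CHR element. A match is a description of the letters in this window and not evidence of binding. Promoters of 5 of the 7 members were matched, and those of Has2 and Has3 were not used here.

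**Figure D1:**
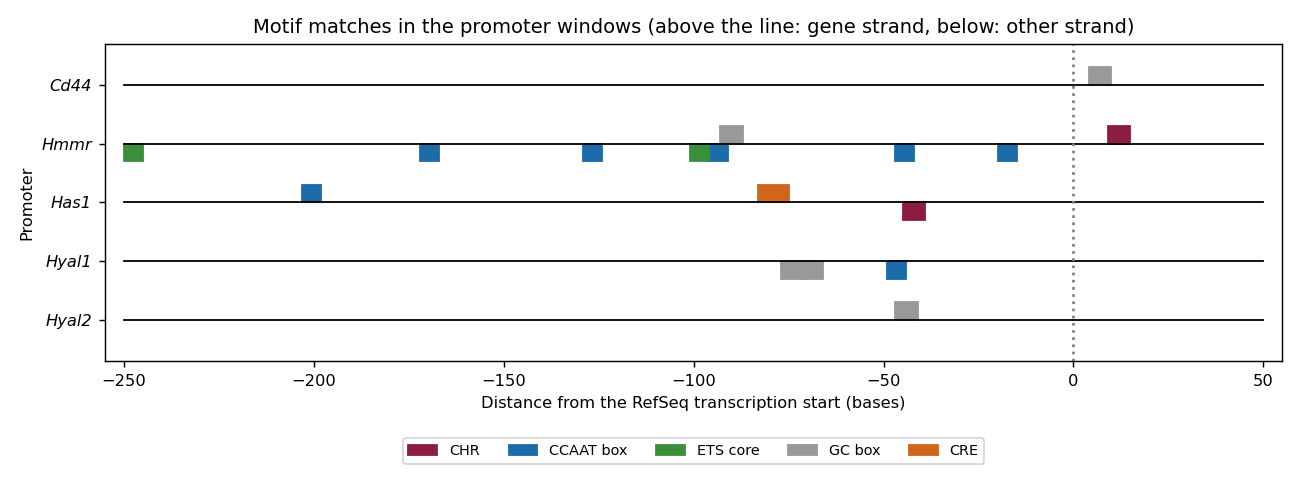
Motif matches in the promoter windows of Cd44, Hmmr, Has1, Hyal1 and Hyal2, plotted by distance in bases from the RefSeq transcription start (dotted line); boxes above a line are on the strand of the gene and boxes below are on the other strand. Hmmr holds 5 CCAAT boxes and a CHR element, whereas Cd44 holds a single GC box after the start.

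Cd44 was the most abundant member. In DMSO it reached 83.8 ± 20.6 CPM per kilobase, above 96% of tested genes, and Hmmr reached 30.6 ± 3.31, above 86.7%. Hyal2 stood at 13.3 ± 3.72 CPM per kilobase, above 71.3% of tested genes. The remaining members were low, with Hyal1 at 1.08 ± 0.539, Has2 at 0.402 ± 0.222, Has3 at 0.161 ± 0.185 and Has1 at 0.0518 ± 0.0898 CPM per kilobase. For Has3 and Has1 the spread between lines was larger than the mean.

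**Figure D2:**
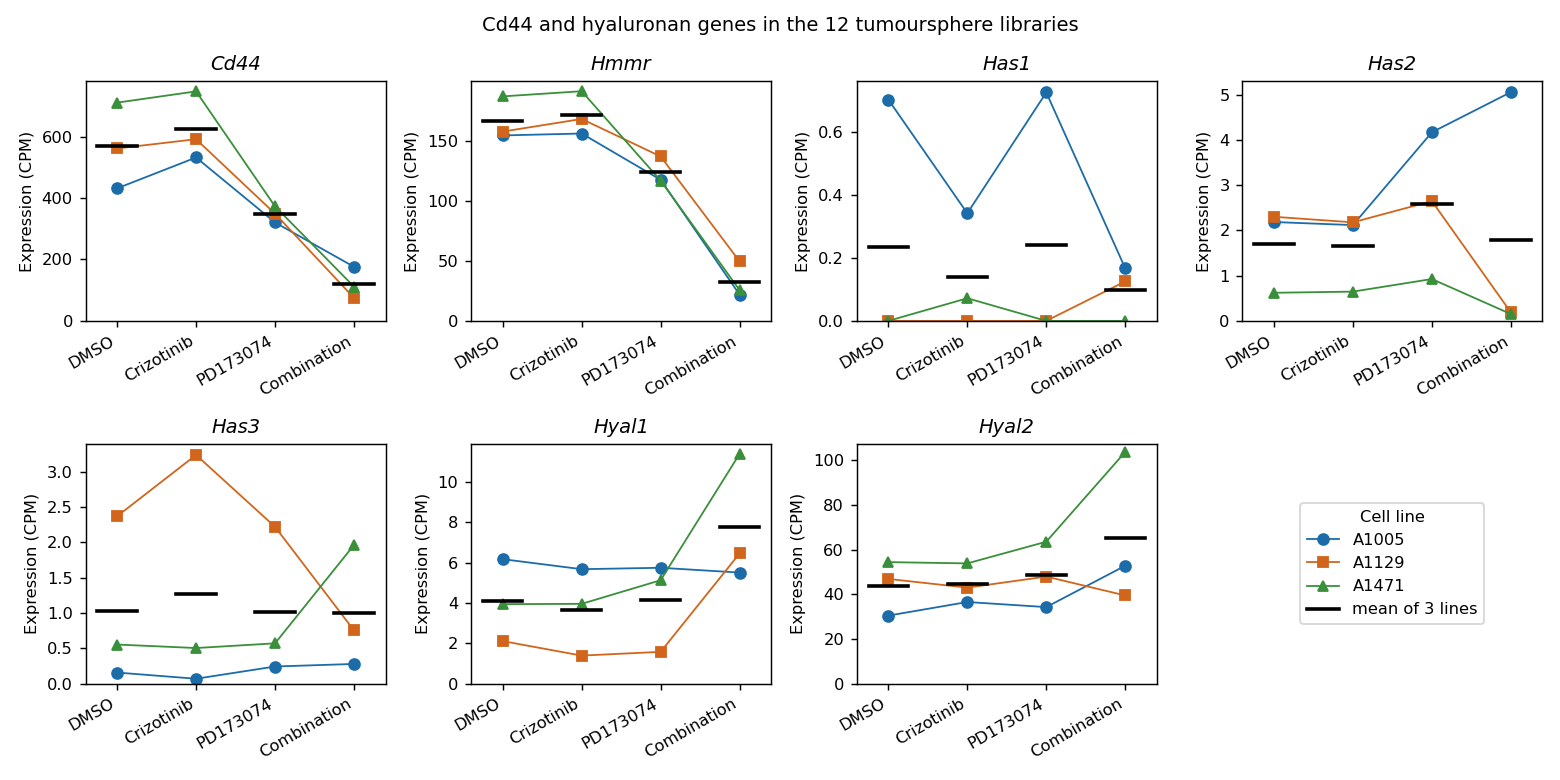
Expression in CPM (linear axis from 0, a separate scale for each gene) of the 7 members in the 12 libraries by treatment; each point is 1 library, coloured lines join the libraries of 1 cell line and the black bar is the mean of the 3 lines. Cd44 and Hmmr are lowest in the combination in every line, while the lines of Has2 and Has3 cross.

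The first question was whether blocking Met and FGF receptors together changed the hyaluronan receptors. Cd44 (ENSMUSG00000005087, chr2:102811141-102901665) was measured in DMSO at 431, 561 and 710 CPM in A1005, A1129 and A1471. In the combination it was 176, 74.6 and 111 CPM in the same order of lines. Every combination library was below every other library, and A1005 kept the highest level in the combination although it had the lowest in DMSO. The level fell from 568 ± 140 to 121 ± 51.3 CPM, which is -2.23 ± 0.31 on the log2 scale (edgeR's quasi-likelihood test, adjusted p = 0.00181). Without A1129 the adjusted p was 0.0595 and without A1471 it was 0.0938, with log2 fold changes of -1.99 and -1.97, whereas with the cell line as a block it was 0.00414 and 0.00859. Leukocytes also express Cd44, and the 4 leukocyte markers summed to 4.34 to 31.3 CPM in DMSO and 8.22 to 42.0 CPM in the combination. Among them Ptprc ranged over the lines from 0.132 to 13.6 CPM in DMSO and from 0 to 17.45 CPM in the combination, highest in A1005 in both. Of the mesenchymal markers, Twist1 fell from 113 ± 12.55 to 53.2 ± 8.31 CPM in the combination (adjusted p = 0.00156), Vim was 2890 ± 353 and 2615 ± 659 CPM (adjusted p = 0.739), and Fn1 was 748 ± 423 and 2333 ± 2458 CPM (adjusted p = 0.247). The part of these cell type markers in the fall of Cd44 was not tested. The counts sum over all isoforms of the gene, so the standard form of CD44 and its exon variants cannot be told apart.

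Within A1005, Cd44 in the combination was 0.408 times its DMSO level (95% exact interval of the count ratio 0.390 to 0.426). The ratio was 0.133 within A1129 (0.125 to 0.141) and 0.157 within A1471 (0.148 to 0.165). Such intervals cover counting error alone, as PCR copies were not removed by molecular tags. The interval of A1005 did not overlap those of the other lines, and with 1 library per line and treatment the difference between lines was not tested.

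Hmmr (ENSMUSG00000020330, chr11:40701395-40733422) was 154, 157.5 and 187 CPM in DMSO in A1005, A1129 and A1471. In the combination it was 21.7, 49.45 and 25.6 CPM. Again every combination library lay below all others, and here A1129 kept the highest level. The level fell from 166 ± 17.95 to 32.25 ± 15.01 CPM, which is -2.36 ± 0.28 on the log2 scale (edgeR's quasi-likelihood test, adjusted p = 0.000919). Without A1471 the adjusted p was 0.0804 and the log2 fold change -2.11, and with the block it was 0.00348 without that line. Of the DMSO level, A1005 kept 14.1%, A1129 31.4% and A1471 13.7%, so the line with the smallest fall of Hmmr differed from the line with the smallest fall of Cd44.

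These were the members called in the combination without a block, 2 of 6 tested and both lower, against 8.28% of all tested genes called lower and 6.1% called higher. The median log2 fold change over the 6 tested members was 0.02, and over all tested genes it was also 0.02. With the block, 2 members were lower and 2 higher, against 26.2% of tested genes lower and 28.6% higher.

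The single inhibitors addressed whether either receptor system alone had the same effect. With Crizotinib, Cd44 was 532, 591 and 747 CPM and Hmmr was 156, 168 and 191 CPM in A1005, A1129 and A1471. Each value was slightly above the DMSO library of its line, and the groups overlapped. The log2 fold change of Cd44 was 0.14 ± 0.30 and that of Hmmr 0.05 ± 0.27, with adjusted p = 1 for both by edgeR's quasi-likelihood test. None of the 6 tested members was called with Crizotinib, and 0% of all tested genes were called by edgeR without or with the block. At an unadjusted p under 0.05 there were 18 genes without the block and 258 with it, with no member in either, and DESeq2 called 1 gene, which was not a member.

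With PD173074, Cd44 was 320, 349 and 373 CPM and Hmmr 117, 137 and 117 CPM in A1005, A1129 and A1471. All 3 values of each gene were below all 3 DMSO values and above all 3 combination values. The mean of Cd44 was 347 ± 26.2 CPM and that of Hmmr 124 ± 11.4 CPM. The log2 fold change of Cd44 was -0.71 ± 0.30, and it missed the threshold of edgeR's quasi-likelihood test (unadjusted p = 0.0383, adjusted p = 1, and adjusted p = 0.224 with the block). That of Hmmr was -0.43 ± 0.27 (adjusted p = 1, and 0.354 with the block). No member was called, against 0% of all tested genes without the block and 2.14% with it. At an unadjusted p under 0.05 there were 307 genes without the block and 2175 with it, Cd44 the only member in either, and DESeq2 called 17 genes and no member. By quantitative PCR, the paper reports Cd44 as significantly modulated by PD173074 and as reduced in the combination.

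In each line, Cd44 and Hmmr both took the order combination, PD173074, DMSO, Crizotinib from low to high. Between neighbours in this order, the combination was below PD173074 by the test (Cd44 log2 fold change -1.53 ± 0.30, adjusted p = 0.0191, Hmmr -1.94 ± 0.28, adjusted p = 0.00366, edgeR's quasi-likelihood test), and PD173074 against DMSO and DMSO against Crizotinib did not pass. Without A1129 the adjusted p of Cd44 against PD173074 was 0.318, and without A1471 it was 0.272 for Cd44 and 0.169 for Hmmr, while with the block both genes were called against PD173074 without any 1 line. In the fit of only these groups the combination was not called against PD173074 for any member. The combination was also below Crizotinib (Cd44 -2.37 ± 0.31, adjusted p = 0.00144, Hmmr -2.41 ± 0.28, adjusted p = 0.000885), which was lost without A1471 (0.0874 and 0.0806) and not with the block. Cd44 and Hmmr were thus the 2 of 6 members called lower in both comparisons, against 7.78% of tested genes called lower against Crizotinib (26% with the block) and 3.93% against PD173074 (20.2% with the block).

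The fall in the combination was then compared with the sum of the separate log2 changes. The departure from that sum was -1.99 ± 0.38 for Hmmr (edgeR's quasi-likelihood test, adjusted p = 0.046, and 0.00222 with the block). For Cd44 it was -1.66 ± 0.42 (adjusted p = 0.136, and 0.0167 with the block). Hmmr was the only member of 6 called lower, against 0.911% of tested genes, and with the block Cd44 was called as well, against 10.7%. Within A1005, A1129 and A1471 the departure was -1.17, -2.30 and -1.82 for Cd44 and -2.45, -1.56 and -2.22 for Hmmr, below 0 in all 3 lines for both genes. The call of Hmmr was lost without the block when any of the 3 lines was left out (adjusted p = 0.206 without A1005, 0.207 without A1129 and 0.691 without A1471). It was also lost with the size factors of DESeq2 (0.0549) and with no filter on low counts (0.0506). With the block, the call of Cd44 was lost without A1129 (0.125) and without A1471 (0.140), and that of Hmmr without A1471 (0.0592).

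**Figure D3:**
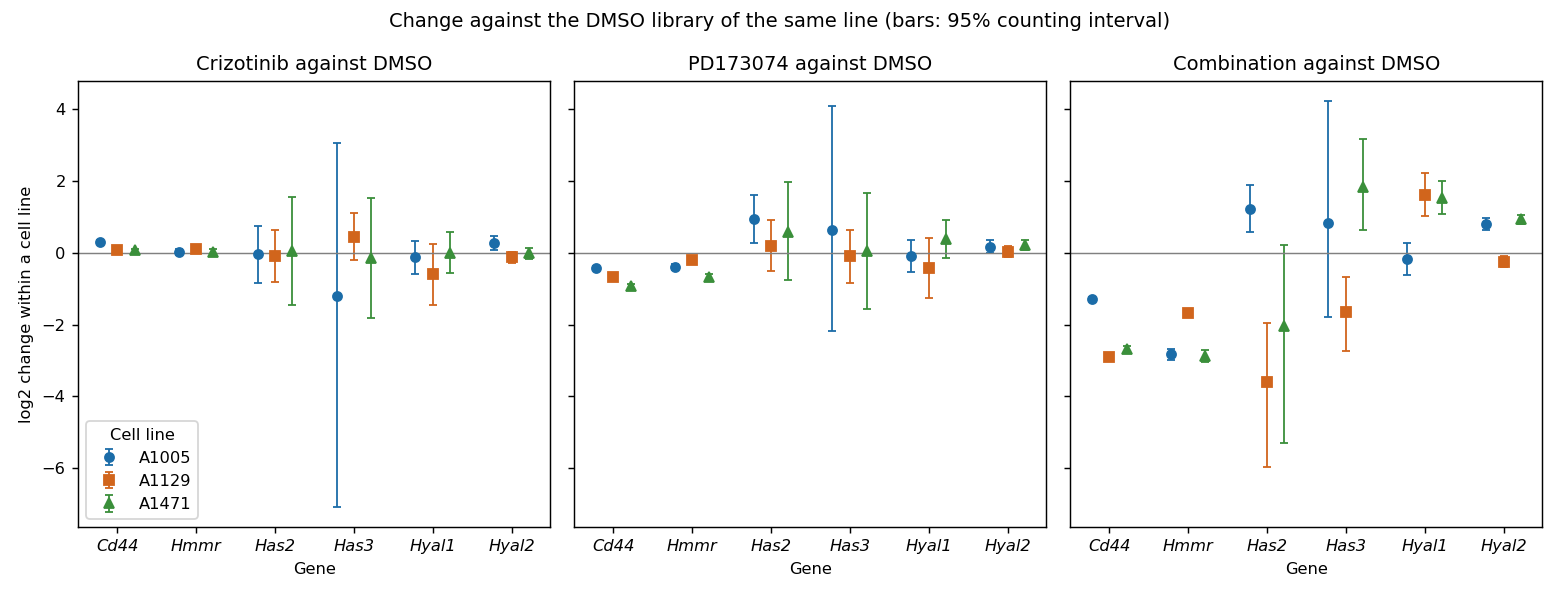
Log2 change against the DMSO library of the same cell line for the 6 tested members under each treatment; points are single lines and bars are 95% exact intervals of the count ratio, which cover counting error only. Cd44 and Hmmr fall in all 3 lines in the combination, whereas Has2, Has3 and Hyal2 have lines on both sides of 0.

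Genes whose pattern was most like that of each receptor were named by the Pearson correlation of log2 CPM centred within each line, over 12 libraries that share treatment and library depth. For Cd44 these were Spred3 (r = 0.997), Prkg2 (0.996) and Slc20a2 (0.996), and for Hmmr they were Kif20b (0.998), Ulbp1 (0.997) and Cep55 (0.996), out of 9223 candidate genes. For the other members the highest values were lower, at 0.979 for Has2 (Dynll1), 0.971 for Hyal1 (Ccng2), 0.971 for Hyal2 (Ppic) and 0.943 for Has3 (Rtcb).

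Hmmr was set beside 12 genes of the mitotic spindle and of mitosis, among them its binding partners. All 12 were tested, 10 were lower in the combination and none was higher. Their median log2 change was -2.13 (11 lower with the block), against 0.02 over all tested genes, of which 8.28% were lower (26.2% with the block). Aurka, the kinase of spindle poles, fell from 124 ± 8.94 to 27.4 ± 7.53 CPM (log2 fold change -2.19, adjusted p = 0.000329, edgeR's quasi-likelihood test). Its activator Tpx2, which binds Hmmr at the spindle, fell from 271 ± 40.7 to 74.3 ± 36.65 CPM (-1.87, adjusted p = 0.00786). Top2a, the topoisomerase that untangles chromosomes, fell from 1066 ± 208 to 182 ± 13.0 CPM. Bard1 fell from 20.2 ± 1.17 to 4.79 ± 1.64 CPM (adjusted p = 0.00105), while its partner Brca1 went from 88.8 ± 29.5 to 52.0 ± 33.9 CPM (adjusted p = 0.274, and 0.00548 with the block). The dynein light chain Dynll1 was 169 ± 11.1 and 158 ± 25.9 CPM and was not called in either fit. Promoters of 11 of these genes were among the RefSeq promoters. A CCAAT box was held by 9 (81.8%, against 37.4% of all RefSeq promoters), among them the uncalled Dynll1. A GC box was held by 8 (72.7%, against 35.7%), a CHR element by 7 (63.6%, against 19.2%) and an ETS core by 6 (54.5%, against 29.9%). AP-1, the TATA box and the CRE were in none of the 11. The genes were listed for their part in mitosis, and CHR elements are known from promoters of such genes. The shares therefore describe the list and are not a test. The neighbour of Hmmr is Nudcd2, which starts on the other strand 245 bases away and also fell, from 128.5 ± 10.6 to 78.8 ± 13.9 CPM (log2 fold change -0.71, adjusted p = 0.0251).

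Other hyaluronan receptors were counted next. Of 6 listed, 4 were tested, 1 was higher and none was lower in the combination, against 6.1% of all tested genes higher and 8.28% lower. With the block 1 was higher and 1 lower, where 28.6% of all tested genes were higher and 26.2% lower. The median log2 change of the 4 tested receptors was 0.05. Tlr2, a pattern recognition receptor that also responds to hyaluronan fragments, rose from 9.24 ± 2.44 to 87.0 ± 40.5 CPM (log2 fold change 3.24, adjusted p = 0.00139). With PD173074 it was 29.35 ± 11.7 CPM, which passed only with the block (adjusted p = 0.0143). Layilin (Layn) went from 48.8 ± 7.13 to 29.8 ± 8.39 CPM (adjusted p = 0.055, and 0.00523 with the block). Tlr4 was 35.5 ± 17.0 and 36.4 ± 18.8 CPM. Lyve1 and Stab2, receptors of lymphatic and sinusoidal endothelium, had at most 2 counts in any library and were not tested.

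A list of 14 genes was counted that held ligands, cytoskeletal anchors, proteases and splicing regulators of CD44 and its co-marker Cd24a, and 13 of them were tested. In the combination 1 was higher and 2 were lower, and with the block 6 were higher, Cd24a among them, and 3 lower. Over all tested genes 6.1% were higher and 8.28% lower, and 28.6% and 26.2% with the block. The median log2 change of the list was 0.44. Osteopontin (Spp1), a secreted ligand of CD44, fell from 4312 ± 3057 to 542 ± 337 CPM (log2 fold change -2.99, adjusted p = 0.0206, edgeR's quasi-likelihood test). Moesin (Msn), which tethers CD44 to actin, fell from 831 ± 175 to 492 ± 58.1 CPM (adjusted p = 0.0312), and its relative ezrin (Ezr) went from 390 ± 134 to 207 ± 24.7 CPM (adjusted p = 0.13, and 0.00816 with the block). Mmp14, a membrane protease that cleaves CD44, rose from 118 ± 43.0 to 523 ± 416 CPM (log2 fold change 2.14, adjusted p = 0.0492). The sheddase Adam10 was 341 ± 33.5 and 464 ± 103 CPM (adjusted p = 0.127, and 0.0405 with the block), and Adam17 was 146 ± 32.1 and 141 ± 18.9 CPM. Esrp1, a splicing regulator that favours the CD44 variant forms, had 0 counts in all 12 libraries, and Esrp2 was 0.995 ± 1.59 and 2.50 ± 3.397 CPM.

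Cd24a, whose product is read together with CD44 in the tumour-initiating cell profile, was 177, 420 and 6.84 CPM in DMSO in A1005, A1129 and A1471. In the combination it was 489, 936 and 56.1 CPM. Each line was higher than its own DMSO library, but the lines differed so much that the groups overlapped. The log2 fold change was 1.30 (adjusted p = 0.648, edgeR's quasi-likelihood test), and 1.78 with the block (adjusted p = 0.00206).

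The synthases were low in every library, with Has2 reaching 5.06 CPM and Has3 3.24 CPM. Has1 (ENSMUSG00000003665) had 9, 5, 12 and 3 counts in A1005 with DMSO, Crizotinib, PD173074 and the combination. In A1129 it had 0, 0, 0 and 2 counts and in A1471 it had 0, 1, 0 and 0. Nearly all of its reads thus came from A1005, and no test was made. A count of 0 allows up to 3 counts, or 0.197 CPM in the DMSO library of A1129.

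Has2 (ENSMUSG00000022367, chr15:56665627-56694539), the main synthase in most tissues, had 28, 35 and 9 counts in DMSO in A1005, A1129 and A1471. With Crizotinib it had 31, 33 and 9 counts, and with PD173074 it had 69, 37 and 13. In the combination the counts were 91, 3 and 2. The lines parted there, with A1005 at its highest level of the 4 treatments and A1129 and A1471 at their lowest. Within A1005 the combination was 2.31 times the DMSO level (95% exact interval 1.501 to 3.67), within A1129 it was 0.0817 times (0.0161 to 0.259) and within A1471 0.243 times (0.0255 to 1.17). The fitted log2 fold change was 0.09 ± 1.18 (adjusted p = 0.977, edgeR's quasi-likelihood test) and turned to -0.33 ± 0.71 with the block (adjusted p = 0.719). Without A1005 it was -3.03 (adjusted p = 0.102), or -3.01 with the block (adjusted p = 0.00326). Its antisense transcript Has2os overlaps 182 bases (4.3%) of its exons and had 5 counts in A1005 with DMSO and 28 in the combination. Whether the counting used strand is not given in the sources used here, so reads in that overlap cannot be told apart.

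Has3 (ENSMUSG00000031910, chr8:106870242-106884566) had 2, 36 and 8 counts in DMSO in A1005, A1129 and A1471. With Crizotinib it had 1, 49 and 7 counts and with PD173074 it had 4, 31 and 8. In the combination the counts were 5, 12 and 26. The count ratio of the combination to DMSO was 0.318 in A1129 (95% exact interval 0.1505 to 0.625), 3.55 in A1471 (1.56 to 9.07) and 1.78 in A1005 (0.291 to 18.7). Each ratio compares 1 library with 1 library and its interval covers counting error only, so no change within a line was called. The fitted log2 fold change was -0.06 ± 1.34 (adjusted p = 0.988) and 0.33 ± 0.73 with the block (adjusted p = 0.721, edgeR's quasi-likelihood test). Chtf8, on the other strand, overlaps 352 bases (5.52%) of the exons of Has3. As the strand setting is not given, reads in that overlap cannot be told apart either.

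The share of Has2 among the synthase reads was taken for each line, and differences between lines were not tested. In DMSO, Has2 made up 71.8% of the counts of the 3 synthases in A1005 (exact Clopper-Pearson 95% interval 55.1% to 85.0%), 49.3% in A1129 (37.2% to 61.4%) and 52.9% in A1471 (27.8% to 77.0%). In the combination it made up 91.9% in A1005 (84.7% to 96.4%), 17.6% in A1129 (3.8% to 43.4%) and 7.14% in A1471 (0.877% to 23.5%). Only in A1471 did the DMSO and combination intervals not overlap. Per exon length, the summed level of the 3 synthases went from 0.696 to 1.27 CPM per kilobase in A1005, from 0.914 to 0.190 in A1129 and from 0.233 to 0.343 in A1471. These totals rest on 17 to 99 counts per library.

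**Figure D4:**
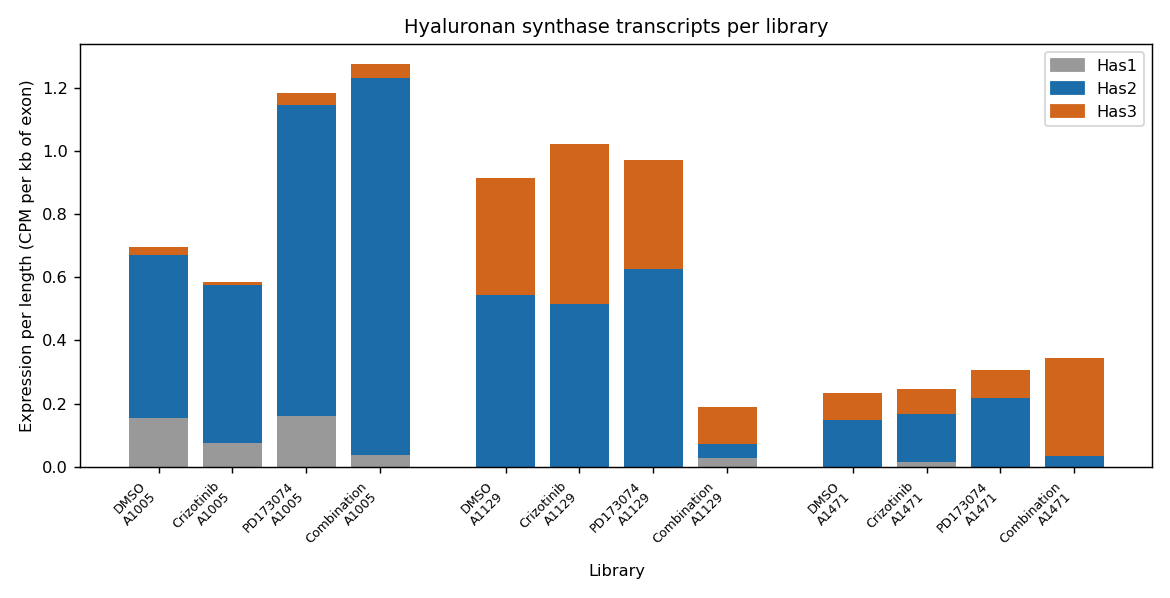
Summed expression of Has1, Has2 and Has3 (CPM per kilobase of exon, stacked, linear axis from 0) in each of the 12 libraries, grouped by cell line. In the combination the bar of A1005 is almost all Has2, while that of A1471 is mostly Has3.

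Has2 and Has3 build hyaluronan from UDP-glucuronic acid and UDP-N-acetylglucosamine. Of 7 listed genes that supply these sugar nucleotides, all were tested, 2 were lower and none was higher in the combination (5 lower with the block), against 8.28% of all tested genes lower (26.2% with the block). The list median of the log2 change was -0.84. Ugdh, which makes UDP-glucuronic acid, fell from 144 ± 26.3 to 78.2 ± 19.7 CPM (log2 fold change -0.88, adjusted p = 0.04, edgeR's quasi-likelihood test). Gnpnat1, an enzyme of the hexosamine pathway, fell from 39.4 ± 8.07 to 18.4 ± 6.34 CPM (-1.10, adjusted p = 0.0366). Gfpt1, the entry enzyme of that pathway, went from 170 ± 30.35 to 121 ± 3.45 CPM (adjusted p = 0.089, and 0.00997 with the block). Its paralog Gfpt2 was at 214 CPM in the DMSO library of A1005, 0.329 CPM in A1129 and 2.97 CPM in A1471.

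The hyaluronidases Hyal1 and Hyal2 were called higher in the combination only with the block. Hyal1 (ENSMUSG00000010051, chr9:107576927-107581710) was 6.17, 2.105 and 3.94 CPM in DMSO in A1005, A1129 and A1471. In the combination it was 5.50, 6.455 and 11.4 CPM. A1129 and A1471 were higher than in any other treatment, while A1005 stayed between 5.50 and 6.17 CPM under all 4 treatments. The mean went from 4.07 ± 2.035 to 7.78 ± 3.16 CPM, or 0.93 ± 0.65 on the log2 scale (edgeR's quasi-likelihood test, adjusted p = 0.386). With the block it rose by 1.07 ± 0.38 (adjusted p = 0.0347), but limma-voom with the block gave adjusted p = 0.0792, and edgeR with the block gave 0.197 without A1129 and 0.267 without A1471. With the block Hyal1 was also higher than with Crizotinib (log2 fold change 1.26, adjusted p = 0.0183) and with PD173074 (1.07, adjusted p = 0.0443), the 1 of 6 members called higher there, against 27.4% and 19.6% of all tested genes. These calls too were lost with the block without A1129 (0.162 and 0.309) and without A1471 (0.163 and 0.225).

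The reads of Hyal1 cannot be fully separated from those of a neighbour. Naa80, an acetyltransferase of actin on the same strand, shares 1920 bases (50.8%) of the exons of Hyal1, and Hyal3 shares 159 bases. Naa80 was 8.71 ± 3.58 CPM in DMSO and 16.2 ± 2.47 CPM in the combination (log2 fold change 0.89, adjusted p = 0.242, and 0.00242 with the block). The part of the shared sequence in the value of Hyal1 was not tested.

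Hyal2 (ENSMUSG00000010047, chr9:107567945-107572779), which lies 4148 bases from Hyal1, was 30.45, 46.9 and 54.4 CPM in DMSO in A1005, A1129 and A1471. With Crizotinib it was 36.55, 43.0 and 53.85 CPM, and with PD173074 it was 34.3, 47.9 and 63.6 CPM. In the combination it was 52.8, 39.5 and 104 CPM. A1005 and A1471 had their highest level there and A1129 its lowest, and the groups overlapped. The log2 fold change was 0.57 ± 0.38 (adjusted p = 0.361, edgeR's quasi-likelihood test) and with the block 0.52 ± 0.20 (adjusted p = 0.0479). Limma-voom with the block gave adjusted p = 0.06525, and edgeR with the block gave 0.250 without A1005 and 0.341 without A1471.

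Enzymes that act after or beside these hyaluronidases were also counted. Of 9 listed, 4 were tested, 1 was higher and none was lower in the combination (3 higher with the block), against 6.1% of all tested genes higher (28.6% with the block). The list median of the log2 change was 1.09. Hexa, a lysosomal hexosaminidase gene, rose from 69.6 ± 13.25 to 241 ± 28.1 CPM (log2 fold change 1.79, adjusted p = 0.000919). Gusb, the lysosomal glucuronidase, was 98.7 ± 38.8 and 83.7 ± 20.9 CPM and was not called. Cemip, a hyaluronan-depolymerising protein, had 80, 0 and 24 counts in DMSO in A1005, A1129 and A1471 and 419, 3 and 180 in the combination (adjusted p = 0.545, and 0.000862 with the block). Hyal5, Hyal6 and Spam1, known from testis, had 0 counts throughout, and Hyal3 had at most 7.

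Matrix proteins that bind hyaluronan were named as a list of 16, of which 7 were tested. None was called in the combination without the block, against 6.1% of all tested genes higher and 8.28% lower. With the block 4 were higher and 1 was lower, against 28.6% and 26.2% of all tested genes. Without the block the median log2 change of the 7 was 1.06. The large proteoglycan versican (Vcan) was 547, 116 and 199 CPM in DMSO in A1005, A1129 and A1471 and 898.5, 462 and 578 CPM in the combination. Every line was higher than its own DMSO library, although the groups overlapped (log2 fold change 1.17, adjusted p = 0.338, and 1.45 with adjusted p = 0.000682 with the block). Aggrecan (Acan) was the 1 lower with the block, at 226 ± 235 and 109 ± 132 CPM (adjusted p = 0.0114).

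**Figure D5:**
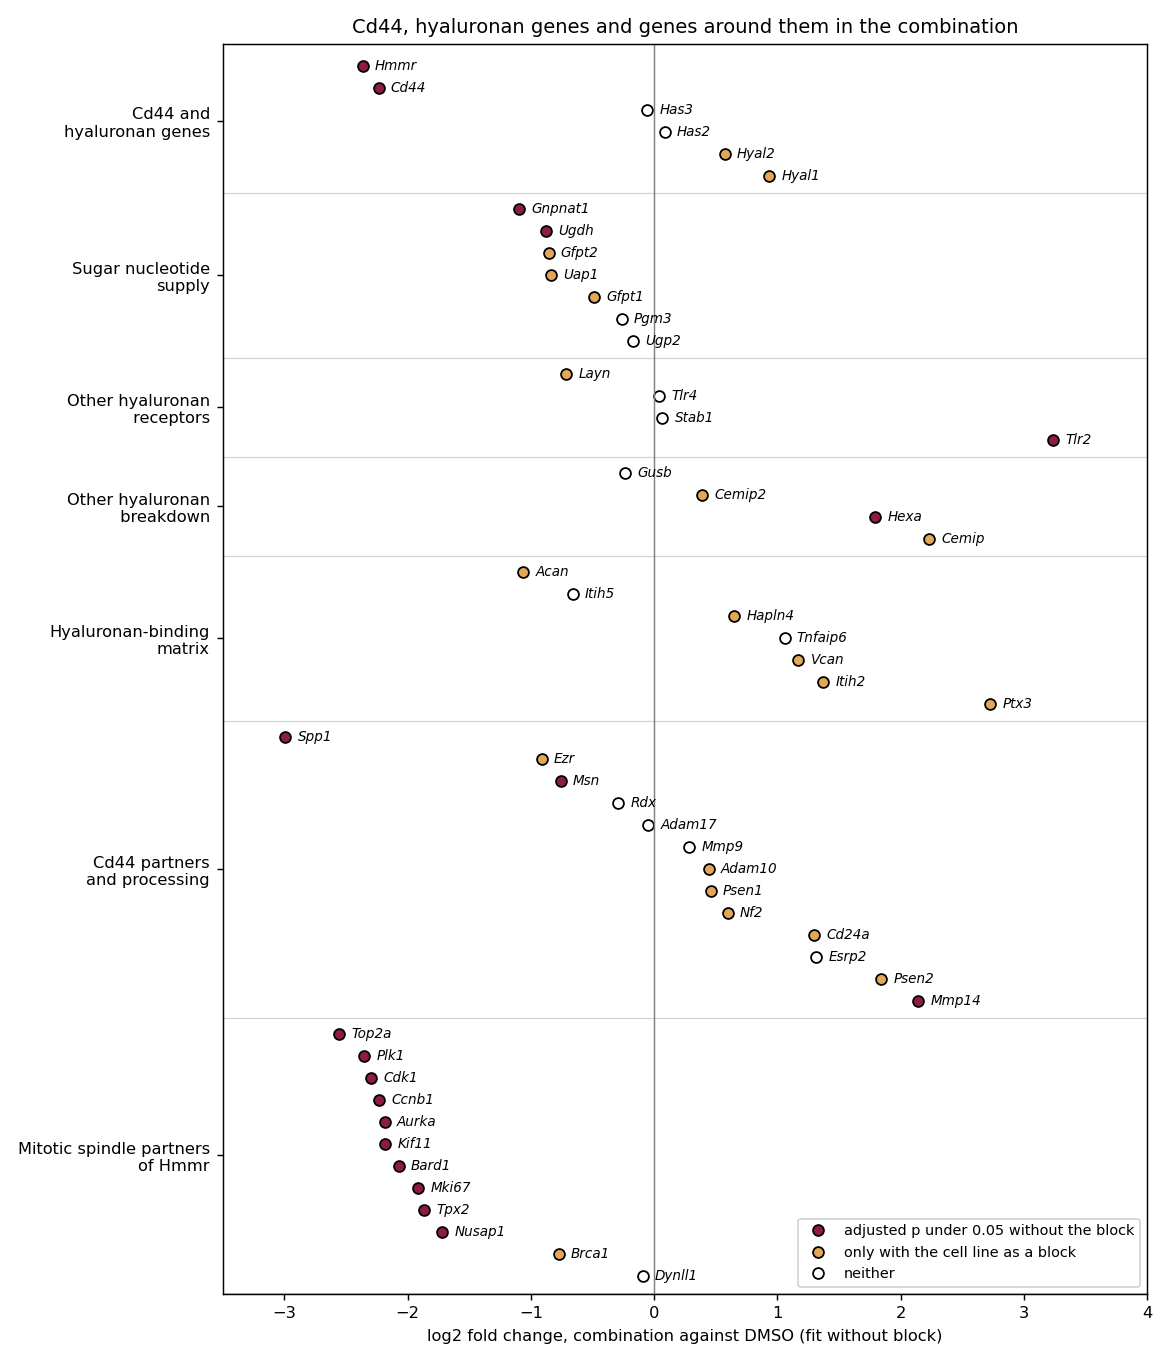
Log2 fold change in the combination against DMSO (horizontal axis, fit without the block) for each tested gene of the lists, 1 row per gene; fill gives whether the adjusted p was under 0.05 without the block, only with it, or in neither fit. Hmmr and Cd44, in the rows of the members, lie at -2.36 and -2.23. The mitotic genes, in their own rows, run from -2.55 (Top2a) to -0.09 (Dynll1), and Spp1 lies lowest at -2.99. Above 1.5 lie Tlr2, Ptx3, Cemip, Mmp14, Psen2 and Hexa, of which Tlr2, Mmp14 and Hexa passed without the block.

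Levels of the members were also compared between the lines, with the treatment in the model. Of the 6 tested members, 4 differed between lines (edgeR's quasi-likelihood F-test), against 73.9% of all tested genes, and the 4 libraries of a line are 1 line under 4 treatments, not separate lines. Cd44 (adjusted p = 0.431) and Hmmr (adjusted p = 0.183) were not called. Has3 was higher in A1129 than in A1005 (log2 fold change 3.45 ± 0.69, adjusted p = 0.00149) and in A1471 than in A1005 (2.14 ± 0.76, adjusted p = 0.0328). It had only 1 to 5 counts per library in A1005. In A1471 it had 26 counts in the combination and 7 or 8 in the other libraries. Has2 was lower in A1471 than in A1005 (-2.60 ± 0.65, adjusted p = 0.00566). Averaged over the treatments, Has2 ran from 3.38 CPM in A1005 through 1.83 in A1129 to 0.586 in A1471, and its neighbours in that order did not differ by the test. In A1005 and A1129 it was 2.19 and 2.30 CPM in DMSO and 2.12 and 2.18 CPM with Crizotinib. With PD173074 it was 4.17 and 2.65 CPM, and in the combination 5.06 and 0.188 CPM. The order of A1005 and A1129 thus depended on the treatment. Hyal1 was lower in A1129 than in A1005 (-1.25 ± 0.34, adjusted p = 0.00963) and in A1471 it was higher than in A1129 (1.14 ± 0.34, adjusted p = 0.0186). Hyal2 was highest in A1471, above A1005 (0.82 ± 0.17, adjusted p = 0.00231) and above A1129 (0.57 ± 0.17, adjusted p = 0.0216).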

How the data were processed

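Gene expression was measured by RNA-sequencing of total RNA in 12 tumoursphere libraries, 3 cell lines under 4 treatments, grouped by the treatment and line in the labels. The authors deposited raw counts, that is, unnormalised read numbers for each Ensembl gene. The submitters' processing notes name bcl2fastq, STAR, HTSeq and the build mm10, and the study's methods state an unpaired analysis. The strand setting and the annotation release are not given in the sources used here. Overlapping genes are therefore uncertain. Gene positions, exon lengths and overlaps came from GENCODE vM21 (mm10), which holds 55394 of the 55573 genes, and promoters (250 bases before to 50 after the start) from RefSeq for GRCm38.p6.

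Low counts were removed by filterByExpr (minimum count 10, minimum total 15), libraries were scaled by TMM, and edgeR 4.0.16 (R 4.3.3) fitted 1 quasi-likelihood model over all 12 libraries, with Benjamini-Hochberg adjustment over 13836 genes and a threshold of 0.05. Differences between lines were tested with line and treatment in the model. The alternatives were the cell line as a replicate block, DESeq2 1.42.0, limma-voom (limma 3.58.1), DESeq2's size factors, no filter, a stricter filter (10 counts or more in each library), only the groups compared, a log2 fold change of at least 1.5 and leaving out each line. Limma-voom with the block, and leaving out each line with the block, were chosen after seeing the data. The line in the labels pairs the libraries, and deviations from treatment means correlated at 0.766 to 0.962 within lines (18 pairs) and at -0.663 to -0.0472 between lines (36 pairs). No 2 libraries agreed within sampling noise (lowest chi-square per degree of freedom 4.53 over 66 pairs).

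The members and gene lists were chosen with earlier results of these data known. The genes named were the 7 members, genes of 6 lists, markers of 4 cell types, genes that overlap or adjoin a member, and the 3 genes most correlated with each member among those averaging 3 or more in log2 CPM. Count ratios within a line carry exact 95% intervals. The fits were tested on simulated data. Plots used Python 3.11.15 with matplotlib 3.10.9. Some genes of the lists are not reported here.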

Additional observations from a re-analysis of the deposited data

Results flagged for a closer look

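Has2 was set apart because its lines moved in opposite directions in the combination. Its log2 change against DMSO was 1.21 in A1005 and -3.61 in A1129, a distance of 4.83. Has3 likewise lay at 1.83 in A1471 and at -1.66 in A1129, a distance of 3.48. Hyal2 lay at 0.93 in A1471 and at -0.25 in A1129, a distance of 1.18. With 1 library per line and treatment, the difference between lines was not tested for any of these genes. The counts behind the changes were 2 to 91 for Has2, 2 to 36 for Has3 and 390 to 1376 for Hyal2.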

How the results depend on the processing

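Against DMSO, 2 members were called in the combination, and 4 with the cell line as a replicate block, where the libraries are paired by line. Leaving out each line gave 0 to 2 calls without the block (1 without A1129, 0 without A1471) and 2 to 4 with it (4 without A1005). Against Crizotinib the 2 calls became 0 to 2 (0 without A1471), or up to 4 with the block (4 without A1005). Against PD173074 they became 0 in the fit of only the groups compared, 0 to 2 without single lines (1 without A1129, 0 without A1471) and 4 with the block without A1005. For the departure, 1 member was called, and 2 with the block, with DESeq2 and with limma-voom with the block, and 0 with DESeq2's size factors, with no filter and without any line. With the block it was 4 without A1005 and 0 without A1471. With all lines and the block, 28.6% of all tested genes were called higher and 26.2% lower against DMSO. The shares were 27.4% and 26% against Crizotinib and 19.6% and 20.2% against PD173074, and 10.7% were lower for the departure. Without the block the lower shares were 8.28%, 7.78%, 3.93% and 0.911% in the same order. Shares for the other settings are not given beside these member calls. Between lines, 4 calls became 2 with at least 10 counts in every library, a filter that Has2 and Has3 did not pass and that left them untested. Over all genes, the combination against DMSO gave 1990 calls, and 7578 with the block, 3032 with DESeq2, 324 without A1129 and 120 without A1471. The cause of the other changes in the calls was not tested. The log2 values that changed sign were those of Has2, Has3, Hyal1 and Hyal2. With the block, Has2 turned to -0.33 against DMSO and -0.28 against Crizotinib, Hyal1 to -0.0066 with PD173074, and Has3 to 0.037 (PD173074), 0.33, 0.13 and 0.30 (combination against DMSO, Crizotinib and PD173074) and 0.10 (departure). With limma-voom, Has2 turned to 0.0091 (Crizotinib), -1.15 and -1.16 (combination against DMSO and Crizotinib), Hyal1 to -0.0038 (PD173074), and Has3 to -0.26 (Crizotinib), 0.074, 0.33 and 0.076 (the 3 combination comparisons) and 0.33 (departure). With limma-voom and the block, Has2 was -0.64 and -0.58 in the first 2 of these and Has3 0.027 with PD173074. Has3 in the combination against PD173074 was 0.021 with DESeq2 and 0.019 with its size factors. Without A1005, Has2 was -3.03 against DMSO and -2.98 against Crizotinib (-3.01 and -2.98 with the block), Has3 with the block was 0.22 against DMSO and 0.27 against PD173074, and Hyal2 with Crizotinib was -0.062 (-0.073 with the block). Without A1129, Has2 was 0.013 against PD173074 and 0.040 for the departure. Without A1471, Hyal1 with PD173074 was -0.16 (-0.19 with the block), Has3 with PD173074 0.052 with the block, and Has2 with the block -0.10 against DMSO and -0.014 against Crizotinib. The leave-one-out ranges were -0.062 to 0.086 for Hyal2 with Crizotinib, -0.16 to 0.16 for Hyal1 with PD173074, and for Has2 in the combination -3.03 to 0.89 against DMSO, -2.98 to 0.91 against Crizotinib, -3.32 to 0.013 against PD173074 and -3.27 to 0.040 for the departure. The cause of these changes was not tested. Of the other single values, 288 planned and 113 added ones kept direction and side of the threshold. With the direction kept, 15 planned and 1 added lost their call, and 6 planned and 12 added gained one. Has1, Has2 and Has3 rest on at most 91 counts per library, which limits what depth can show.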
